A study of Mus musculus with 4 samples.

Results

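The immediate early transcription factors of the AP-1 and EGR families were examined in cultured mouse peritoneal macrophages that lack Ch25h and in macrophages that carry it. The 10 genes were chosen by name, as the rows of the deposited expression table for Fos, Fosb, Fosl2, Jun, Junb, Jund, Egr1, Egr2, Egr3 and Atf3, out of 23735 loci in all. Each stood on a locus of its own, and 9 of the 10 averaged 1 FPKM or more over all libraries (fragments per kilobase of transcript, scaled to the library's mapped fragments, a level corrected for transcript length) and entered the test of 10074 loci. Fosb was below that filter.

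The Ch25h_KO group was labelled ApoE-/-/Ch25h-/- and the Ch25h_WT group ApoE-/-/Ch25h+/+, so that both carried the apolipoprotein E deletion, and each group held 2 libraries from C57BL/6 mice aged 6 weeks. Thioglycolate at 3%, a sterile irritant that draws macrophages into the peritoneum, was given 3 days before collection, and the washed-out cells were cultured in medium with serum before RNA extraction. The design names 12 mice per group in biological duplicate, and does not say how mice were shared between libraries or whether the genotypes were littermates. The p-values therefore measure only the spread between these libraries, which may in part be technical.

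AP-1 is a dimer of a Fos protein with a Jun protein, or of Jun proteins with each other or with ATF family partners, joined through a leucine zipper next to a basic DNA-binding stretch. The EGR proteins bind GC-rich DNA through zinc fingers. Genes of both families are switched on within minutes of growth factor, cytokine or Toll-like receptor signals, through MAP kinases acting on factors already present, and in macrophages they control cytokines, proteases and differentiation. Atf3, a stress-induced partner of this group, is known in mouse macrophages as a repressor of inflammatory genes and of Ch25h itself, and Ch25h makes 25-hydroxycholesterol.

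Ch25h was 4.25 and 5.53 FPKM in the Ch25h_KO libraries, against 63.3 and 65.3 FPKM in the Ch25h_WT libraries, the direction the labels give. Apoe was 3683 and 3373 FPKM in the Ch25h_KO libraries, against 614 and 610 FPKM in the Ch25h_WT libraries, although all 4 libraries were labelled ApoE-/-. A locus value does not tell a disrupted transcript from a functional one, and a second genetic difference at Apoe cannot be told apart from the Ch25h genotype. The macrophage markers Lyz2, Cd68, Itgam, Emr1 and Csf1r ranged upward from 274 FPKM, the value of Csf1r in Ch25h_KO replicate 1. Others on the list were far lower. Mertk, Cd163, Mrc1 and Fcgr1 had means of 25.7, 7.36, 6.37 and 4.81 FPKM in Ch25h_KO, against 27.0, 6.28, 5.94 and 4.27 FPKM in Ch25h_WT. Of 10 macrophage markers tested, 0 passed with limma, with 2 higher and 0 lower at unadjusted p under 0.05 (Cd14 and Fcgr1). Over all tested loci 9.38% were higher and 11.5% lower at that p. The summed level of the 10 markers, most of it Lyz2, was 28116 to 28814 FPKM in Ch25h_KO against 26738 to 27686 FPKM in Ch25h_WT. Cd14 had a mean of 6810 FPKM in Ch25h_KO against 5233 FPKM in Ch25h_WT. The means of Lyz2, Cd68, Itgam, Emr1 and Csf1r were lower in Ch25h_KO. Low values of the table gave an implied depth of 9690000 to 12590000 fragments per library.

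Egr1 was the member with the clearest difference and the one that passed the test over all loci. It was 33.5 and 32.9 FPKM in the Ch25h_KO libraries, against 20.6 and 21.2 FPKM in the Ch25h_WT libraries. Both Ch25h_KO libraries lay above both Ch25h_WT libraries, and the distance between the groups was many times that between libraries of a group. Egr1 rose 1.59-fold, or by 0.64 ± 0.053 (SE) in log2(FPKM + 1), the scale of every log2 change given here, with limma adjusted p = 0.035, and ranked 30 of 10074 loci by p. In all, 44 of 10074 loci passed with limma at adjusted p under 0.05 (0.437%), against 1 of the 9 tested members. Of the 44 loci, 23 were higher and 21 lower, which is 0.228% and 0.208% of all tested loci. Without Ch25h_KO replicate 1 or 2, or without Ch25h_WT replicate 1 or 2, Egr1 kept a log2 change of 0.63, 0.65, 0.62 or 0.66, but the limma adjusted p was 0.199, 0.215, 0.255 or 0.219. The call also ended with a pseudocount of 0.1 (limma adjusted p = 0.0649) or 0.5 (0.0503), with no filter on low values (0.0627) and with a replicate block (0.142).

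The other EGR members did not pass, and whether their changes differ from that of Egr1 was not tested. Egr2, which is linked to macrophage and lymphocyte differentiation, was 8.03 and 7.45 FPKM in the Ch25h_KO libraries, against 8.42 and 7.56 FPKM in the Ch25h_WT libraries. Its log2 change was -0.039 (SE 0.075, limma adjusted p = 0.799), and its groups overlapped. Egr3, an EGR factor best known from lymphocytes and neurons, was 5.004 and 4.60 FPKM in the Ch25h_KO libraries, against 5.75 and 4.45 FPKM in the Ch25h_WT libraries. Its groups overlapped too, and its log2 change was -0.064 (SE 0.12, limma adjusted p = 0.790). Both changes turned to above 0 without Ch25h_WT replicate 1 (0.030 for Egr2 and 0.090 for Egr3), and that of Egr2 also without Ch25h_KO replicate 2 (0.0092). Egr1 made up 72.0% and 73.2% of the summed FPKM of the 3 EGR genes in the Ch25h_KO libraries, against 59.3% and 63.8% in the Ch25h_WT libraries. Within a library, where scaling between libraries cancels, Egr1 stood at 4.17 and 4.42 times Egr2 in the Ch25h_KO libraries, against 2.45 and 2.81 times in the Ch25h_WT libraries. With 2 libraries per group the smallest exact two-sided permutation p is 0.333, so such ratios are given as values. Nab1 and Nab2, co-repressors that bind EGR proteins and whose genes EGR factors induce, had log2 changes of -0.021 and -0.034 (limma adjusted p = 0.878 and 0.750). Of 4 listed EGR relatives and co-repressors, these 2 were tested, and neither had an unadjusted p under 0.05. Egr4 was below 0.2 FPKM in every library.

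**Figure D1:**
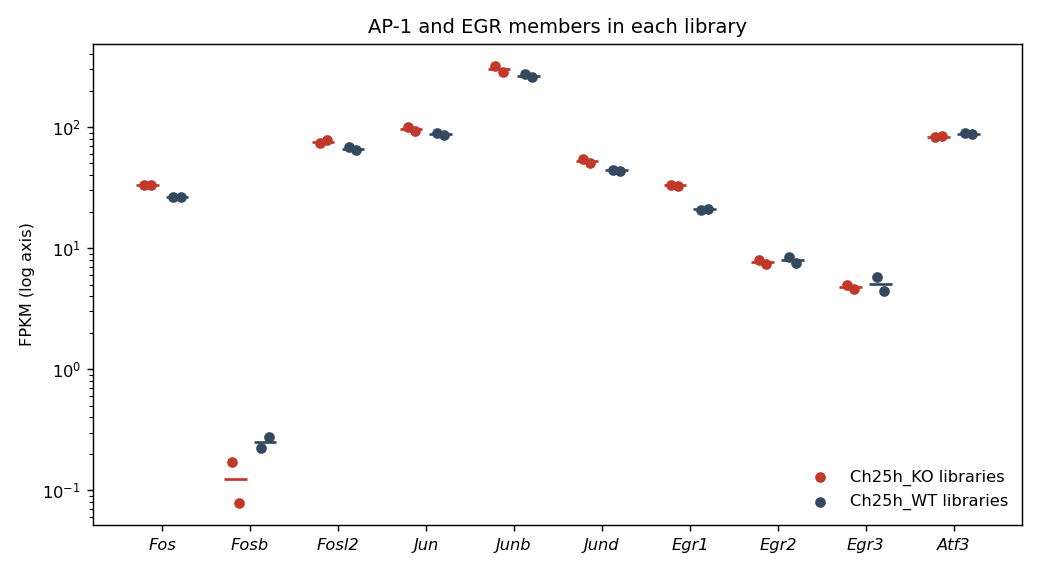
Level of each member in each library, in FPKM on a log axis, with Ch25h_KO libraries in red left of Ch25h_WT libraries in dark grey; points are libraries and short lines are group means of 2 libraries. Egr1 and Fos show separated groups with close replicates, Egr2 and Egr3 overlap, and Fosb lies below 0.3 FPKM in every library.

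Fos, the founding AP-1 subunit, which needs a Jun partner to bind DNA, was 33.0 FPKM in both Ch25h_KO libraries, against 26.4 and 26.3 FPKM in the Ch25h_WT libraries. The groups did not overlap, and the level was 1.25-fold in Ch25h_KO. The log2 change was 0.31 (SE 0.051, limma adjusted p = 0.0966), so Fos did not pass. The Ch25h_KO replicates differed by 0.0327%, closer than the counting error of 3.72% to 4.23% expected of the roughly 559 to 722 fragments behind each value, so their own SD understates the error. Fos passed when the test was confined to loci averaging 5 FPKM or more (limma adjusted p = 0.0472) and with limma's trend and robust options (0.0085). Fosl2 (Fra-2), a Fos relative without the strong activation domain of Fos, was 73.4 and 78.1 FPKM in the Ch25h_KO libraries, against 67.9 and 64.9 FPKM in the Ch25h_WT libraries. Its groups did not overlap, and its log2 change was 0.19 (SE 0.062, limma adjusted p = 0.204). The related Fosl1 (Fra-1) was 12.3 and 9.70 FPKM in the Ch25h_KO libraries, against 9.92 and 8.50 FPKM in the Ch25h_WT libraries, with overlapping groups (limma adjusted p = 0.387).

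Fosb was close to the limit of detection and went the other way. It was 0.171 and 0.0785 FPKM in the Ch25h_KO libraries, against 0.222 and 0.277 FPKM in the Ch25h_WT libraries. The values corresponded to whole fragments, 7 and 3 in the Ch25h_KO libraries against 11 and 11 in the Ch25h_WT libraries. Relative to depth, the 10 fragments in Ch25h_KO against 22 in Ch25h_WT gave a ratio of 0.513, with an exact 95% binomial interval of 0.217 to 1.13 that covers counting error only. A ratio of 1 lay inside that interval, so no difference was detectable at this depth. With no filter on low values Fosb did not pass (limma adjusted p = 0.339).

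None of the 3 Jun genes passed the test, and Junb had the highest mean level of the members in both groups. Junb, a Jun protein that is strongly induced in activated macrophages, was 320 and 286 FPKM in the Ch25h_KO libraries, against 272 and 258 FPKM in the Ch25h_WT libraries. Its log2 change was 0.19 (SE 0.077, limma adjusted p = 0.257), and its groups did not overlap. The group means differed by 38.1 FPKM (14.4%), against a gap of 11.8% between the Ch25h_KO replicates, and the nearest libraries of the groups, at 286 and 272 FPKM, were closer to each other than the Ch25h_KO replicates were. Jun, the activating partner of Fos, was 99.3 and 93.1 FPKM in the Ch25h_KO libraries, against 88.5 and 86.6 FPKM in the Ch25h_WT libraries. The groups of Jun did not overlap, and its log2 change was 0.13 (SE 0.060, limma adjusted p = 0.293). Jund, the family member usually present in resting cells, was 54.8 and 50.1 FPKM in the Ch25h_KO libraries, against 44.4 and 43.1 FPKM in the Ch25h_WT libraries. Its log2 change of 0.25 (SE 0.067, limma adjusted p = 0.153) did not pass, and passed with limma's trend and robust options alone among the alternatives (0.027). In GENCODE vM21 exons of Jun, Junb and Jund overlap exons of a gene on the opposite strand (Junos, Prdx2 and Gm11175), and since no strand setting is given in the sources used here, reads of these partners cannot be told apart where they overlap. The make-up of the Jun family was alike in both groups, with Junb at 67.5% and 66.7% of the summed Jun family FPKM in the Ch25h_KO libraries, against 67.2% and 66.5% in the Ch25h_WT libraries. The summed Jun family level was 4.45 and 3.86 times the summed level of Fos, Fosb and Fosl2 in the Ch25h_KO libraries, against 4.28 and 4.24 times in the Ch25h_WT libraries.

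Atf3 was 83.0 and 83.6 FPKM in the Ch25h_KO libraries, against 89.7 and 86.8 FPKM in the Ch25h_WT libraries. Both Ch25h_KO libraries lay below both Ch25h_WT libraries, by a small amount, and the log2 change of -0.082 did not pass (SE 0.053, limma adjusted p = 0.434). Atf3 was thus the single tested member with a separated lower group, and none of 12 alternative settings turned its direction or made it pass. Egr1 stood at 0.403 and 0.393 times Atf3 in the Ch25h_KO libraries, against 0.230 and 0.244 times in the Ch25h_WT libraries.

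Read over the list, 6 of the 9 tested members lay above in Ch25h_KO without overlap, 1 lay below and 2 overlapped. The same 6 had a log2 change above 0, as had 45.7% of all tested loci. Of all tested loci 23.4% were above and 30.3% below without overlap. The median log2 change was 0.19 over the tested members and -0.014 over all tested loci. At unadjusted p under 0.05 with limma, 4 members were higher (Egr1, Fos, Jund and Fosl2) and 0 lower, where 9.38% of all loci were higher and 11.5% lower. These counts describe a list that was chosen with results of these libraries known.

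The order of levels differed between the groups at a few places. In Ch25h_KO, Junb (303 ± 23.8 FPKM) was followed by Jun (96.2 ± 4.33), Atf3 (83.3 ± 0.419), Fosl2 (75.7 ± 3.32), Jund (52.5 ± 3.32), Egr1 (33.2 ± 0.417), Fos (33.0 ± 0.00764), Egr2 (7.74 ± 0.416), Egr3 (4.80 ± 0.284) and Fosb (0.125 ± 0.0655; SD, n = 2 libraries). In Ch25h_WT the order was Junb (265 ± 10.2 FPKM), Atf3 (88.2 ± 1.99), Jun (87.6 ± 1.32), Fosl2 (66.4 ± 2.14), Jund (43.8 ± 0.907), Fos (26.4 ± 0.0759), Egr1 (20.9 ± 0.424), Egr2 (7.99 ± 0.609), Egr3 (5.10 ± 0.920) and Fosb (0.249 ± 0.0392; SD, n = 2 libraries). Egr1 and Fos did not differ beyond their spread in Ch25h_KO, nor did Jun and Atf3 in Ch25h_WT. Egr1 was 1.01 and 0.995 times Fos in the Ch25h_KO libraries, against 0.780 and 0.805 times in the Ch25h_WT libraries. By mean level over the 4 libraries, Junb ranked 294 of 10074 tested loci, Jun 813, Atf3 873 and Fosl2 1053, while Egr2 and Egr3 ranked 6000 and 7247.

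The stretch just before the transcription start is shown for 3 members, because in textbook accounts signals reach these genes through short elements there. They are Fos, whose groups were separate, Junb, the most abundant member, and Egr2, whose groups overlapped. The 250 bases before the RefSeq start (GRCm38.p6, 5′ to 3′ on the gene's strand) were taken from chr12:85473640-85473889 on the plus strand for Fos, chr8:84978749-84978998 on the minus strand for Junb, and chr10:67537619-67537868 on the plus strand for Egr2, which has 5 annotated starts. None of the 3 windows overlaps an exon of GENCODE vM21. The Egr2 window shown lies downstream of the RefSeq starts just after bases 67535498 and 67537565, so transcripts from those starts may run through it. Capitals mark TGACG, the core shared by ATF and CREB sites, on either strand, and in Egr2 also the CArG box bound by serum response factor. For Egr2 the window was picked as the first of those with the most matches to these elements. The Egr2 window from base 67535249 held neither element.
Fos: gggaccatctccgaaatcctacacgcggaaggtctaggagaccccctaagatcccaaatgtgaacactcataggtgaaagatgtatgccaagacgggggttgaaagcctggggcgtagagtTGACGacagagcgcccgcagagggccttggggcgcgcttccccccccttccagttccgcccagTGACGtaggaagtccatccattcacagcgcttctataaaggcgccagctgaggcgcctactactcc
Junb: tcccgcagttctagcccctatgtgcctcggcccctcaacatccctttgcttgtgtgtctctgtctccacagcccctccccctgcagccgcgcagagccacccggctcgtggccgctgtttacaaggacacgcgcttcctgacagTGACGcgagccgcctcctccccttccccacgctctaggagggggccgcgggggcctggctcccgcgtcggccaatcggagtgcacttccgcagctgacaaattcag
Egr2: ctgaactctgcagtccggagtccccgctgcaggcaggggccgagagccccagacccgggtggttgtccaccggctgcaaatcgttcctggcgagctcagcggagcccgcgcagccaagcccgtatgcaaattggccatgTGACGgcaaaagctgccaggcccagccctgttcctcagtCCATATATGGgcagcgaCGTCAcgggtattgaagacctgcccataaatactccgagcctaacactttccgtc
Fos holds TGACG 129 and 66 bases before the start, Junb 106 bases before it, and Egr2 111 and, on the other strand, 55 bases before it, next to a CArG box at 72 bases. RefSeq windows of 8 of the 10 members were examined, and the counts below cover these 8 only. TGACG was in a window of 5 of these 8, against 17.8% of 32851 windows of the same length, and a CArG box in 1 of 8, against 1.47%. A member counts if any of its windows holds the element, while the percentages are of single windows, so they are not directly comparable. Egr2, with 5 starts, is the member of the 8 with the CArG box in a window. Bases farther than 250 before a start were not examined. A member without an element in its window, such as Fos for the CArG box, may therefore hold one farther away. The full palindrome TGACGTCA, which contains TGACG on both strands, and the AP-1 sites TGACTCA and TGAGTCA were in none of the 8, against 1.55% and 4.46% of windows. The EGR sites GCGTGGGCG and GCGGGGGCG were in windows of 2 members, Fosl2 and Fosb, against 3.06% of windows. These matches describe letters in these windows and do not show binding. The Fos window and the Egr2 window shown both hold TGACG at 2 places. The levels of Fos and Egr2 differed between the groups by log2 changes of 0.31 and -0.039, neither of which passed.

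Other leucine zipper factors that can pair with AP-1 proteins or compete for their sites were read from the same fit. Of 26 listed, 24 were tested and 0 passed with limma over all loci. At unadjusted p under 0.05 the count was 10 higher and 0 lower, where 9.38% of all tested loci were higher and 11.5% lower, and the median log2 change was 0.17 against -0.014 over all tested loci. Crem, a cAMP-responsive factor with activator and repressor isoforms, was 40.8 and 38.0 FPKM in the Ch25h_KO libraries, against 27.3 and 24.3 FPKM in the Ch25h_WT libraries. Its groups were well apart, and its log2 change was 0.59 (SE 0.080, limma adjusted p = 0.0783). Ddit3 (CHOP), a stress factor that acts with Atf4, was 68.9 and 63.0 FPKM in the Ch25h_KO libraries, against 48.3 and 47.0 FPKM in the Ch25h_WT libraries (log2 change 0.46, SE 0.067, limma adjusted p = 0.0883). Crem and Ddit3 both passed among loci of at least 5 FPKM (limma adjusted p = 0.0387 and 0.0437) and with limma's trend and robust options. Batf, a Jun partner of immune cells, was 65.1 and 61.9 FPKM in the Ch25h_KO libraries, against 56.1 and 52.0 FPKM in the Ch25h_WT libraries. Jdp2, a repressive Jun partner, was 234 and 229 FPKM in the Ch25h_KO libraries, against 209 and 207 FPKM in the Ch25h_WT libraries. Batf and Jdp2 did not pass (limma adjusted p = 0.170 and 0.207). Atf7 was on the lower side, its log2 change being -0.13 (limma adjusted p = 0.329). The bZIP partners Atf2 and Atf1, which MAP kinases and protein kinase A activate by phosphorylation, had log2 changes of 0.0019 and 0.017.

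**Figure D2:**
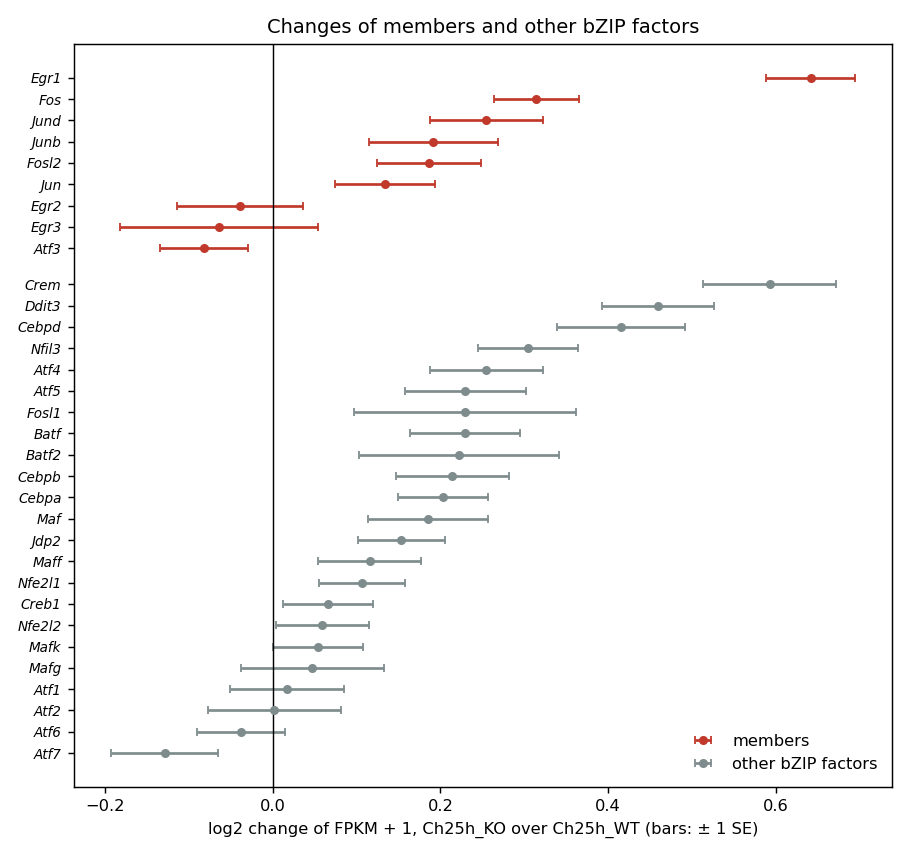
Log2 change of FPKM + 1, Ch25h_KO over Ch25h_WT, for the 9 tested AP-1 and EGR members (red) and 23 of the other leucine zipper factors (grey); points are limma estimates and bars are ± 1 SE. Egr1 lies farthest to the right at 0.64, Crem at 0.59 next to it, and Atf3 at -0.082 and Atf7 at -0.13 lie below 0.

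Of the listed genes upstream of the members, none passed. Serum response factor (Srf), which acts at CArG boxes, was 13.3 and 13.1 FPKM in the Ch25h_KO libraries, against 12.8 and 13.1 FPKM in the Ch25h_WT libraries (log2 change 0.022, limma adjusted p = 0.842). Of 8 listed SRF and ETS regulators 0 passed with limma, and 2 were higher (Elk1 and Ets2) and 1 lower (Ets1, at -0.26) at unadjusted p under 0.05, with a median log2 change of 0.056. Of 23 tested MAP kinase pathway genes 0 passed with limma, and at unadjusted p under 0.05 the count was 0 higher and 1 lower, namely Mapk9 (JNK2) at -0.15. Their median log2 change was 0.035. Beside both lists, 9.38% of all tested loci were higher and 11.5% lower at that p. Kinase transcripts do not report kinase activity.

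Other immediate early genes were mostly on the higher side in Ch25h_KO. Of 42 listed, 38 were tested and 0 passed with limma, 21 were higher and 0 lower at unadjusted p under 0.05, and 31 lay above and 3 below without overlap. Over all tested loci 9.38% were higher and 11.5% lower at that p, and 23.4% lay above and 30.3% below without overlap. The median log2 change was 0.17 over the list and -0.014 over all tested loci. Dusp1, the phosphatase that switches off MAP kinases, was 342 and 346 FPKM in the Ch25h_KO libraries and 242 FPKM in both Ch25h_WT libraries (log2 change 0.51, SE 0.051, limma adjusted p = 0.0522). Its adjusted p was just above 0.05, and it passed with size factors (limma adjusted p = 0.0477), among loci of at least 5 FPKM (0.0212) and with limma's trend and robust options. Sgk1, a serum-induced kinase, was 78.7 and 77.8 FPKM in the Ch25h_KO libraries, against 60.5 and 58.5 FPKM in the Ch25h_WT libraries (limma adjusted p = 0.0783). Further genes of the list, chosen after their values were seen, were Ier2 and Dusp5. Ier2, a nuclear protein of the growth response, was at 81.7 and 78.8 FPKM in the Ch25h_KO libraries against 66.3 and 63.8 FPKM in the Ch25h_WT libraries (limma adjusted p = 0.110). Dusp5, a phosphatase of ERK, was at 14.1 and 15.9 FPKM in the Ch25h_KO libraries against 10.8 and 10.1 FPKM in the Ch25h_WT libraries (limma adjusted p = 0.097). Klf10 and Klf4 were the lower genes with the smallest p, at log2 changes of -0.11 and -0.087. Arc, Npas4, Ctgf and Cyr61 were under 0.5 FPKM in every library.

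**Figure D3:**
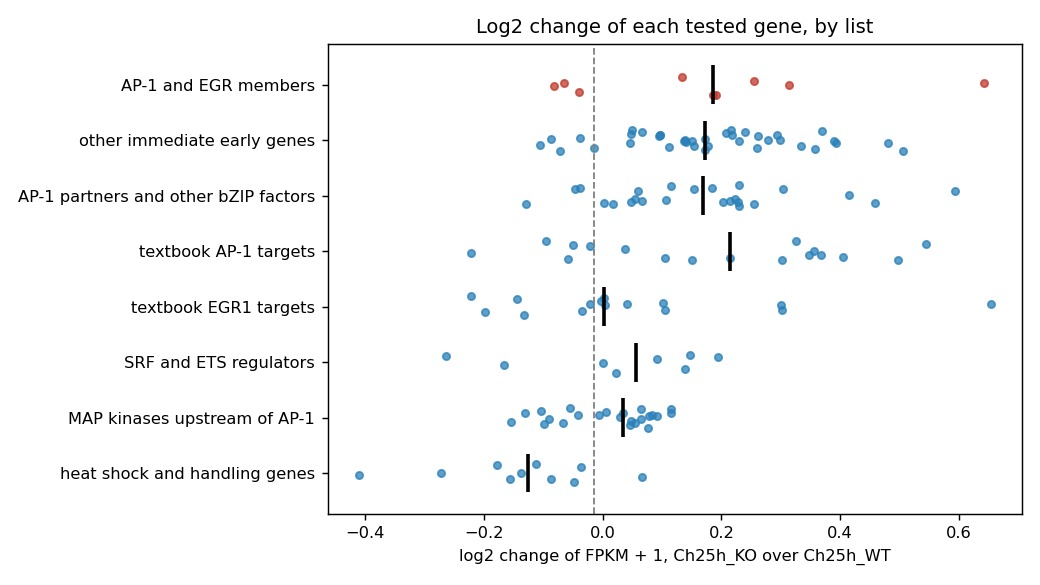
Log2 change of FPKM + 1, Ch25h_KO over Ch25h_WT, of every tested gene of the AP-1 and EGR members (red) and of 7 related lists (blue); each point is a gene, black bars are list medians and the dashed line is the median of all tested loci at -0.014. The members, other immediate early genes, bZIP factors and AP-1 targets have medians between 0.17 and 0.21, EGR1 targets sit at 0.0020 and heat shock genes at -0.12.

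Genes known as targets of these factors were read by family. Of 17 tested AP-1 targets 0 passed with limma, with 9 higher and 1 lower at unadjusted p under 0.05, where 9.38% of all tested loci were higher and 11.5% lower, and a median log2 change of 0.21. Timp1, an inhibitor of matrix proteases, was 127 and 120 FPKM in the Ch25h_KO libraries, against 83.7 and 84.7 FPKM in the Ch25h_WT libraries (log2 change 0.55, SE 0.059, limma adjusted p = 0.0622). Il1b was 314 and 305 FPKM in the Ch25h_KO libraries, against 211 and 227 FPKM in the Ch25h_WT libraries (log2 change 0.50, SE 0.063, limma adjusted p = 0.078). The others higher at unadjusted p under 0.05 were Plaur, Il6, Ccl2, Vegfa, Ptgs2, Mmp12 and Hbegf. The AP-1 regulated proteases Mmp9 and Mmp13 had log2 changes of 0.15 and -0.096 (limma adjusted p = 0.244 and 0.542). Tnf was the lower member, at 51.5 and 51.1 FPKM in the Ch25h_KO libraries and 60.0 FPKM in both Ch25h_WT libraries (limma adjusted p = 0.128). Of 15 tested EGR1 targets, 3 were higher and 2 lower with limma at unadjusted p under 0.05, where 9.38% of all tested loci were higher and 11.5% lower. Their median log2 change was 0.0020, and 1 of them passed with limma, where 0.437% of all tested loci did. That gene was F3, tissue factor, the starter of coagulation. F3 rose to 32.5 and 31.5 FPKM in the Ch25h_KO libraries, against 20.2 and 19.8 FPKM in the Ch25h_WT libraries (1.60-fold, log2 change 0.65, SE 0.054, limma adjusted p = 0.035). Like Egr1, F3 did not pass with any library left out, at limma adjusted p between 0.196 and 0.244, nor with a replicate block (0.140), no filter on low values (0.0627) or a pseudocount of 0.1 (0.0649) or 0.5 (0.0503). The growth factor genes on that list did not pass and lay on both sides. Tgfb1 and Pdgfa had log2 changes of 0.30 each (limma adjusted p = 0.111 and 0.121), while Pdgfb was 4.34 and 4.68 FPKM in the Ch25h_KO libraries, against 5.39 and 4.80 FPKM in the Ch25h_WT libraries (log2 change -0.14, limma adjusted p = 0.343). The adhesion genes Icam1 and Thbs1 had log2 changes of -0.13 and 0.0042 (limma adjusted p = 0.323 and 0.978).

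Genes linked to Atf3 were compared last, in a list that holds inflammatory genes it represses and stress genes that are induced with it. Of 11 tested, 3 rose and 1 fell with limma at adjusted p under 0.05, where 0.228% of all tested loci were higher and 0.208% lower. The one that fell was Ch25h, the deleted gene itself, so its fall was set by the design. At unadjusted p under 0.05, 9 were higher and 1 lower, where 9.38% of all tested loci were higher and 11.5% lower. The median log2 change was 0.43. Some genes stand on more than 1 list, so the counts of the lists are not separate observations. Ddit3 and Atf4 were also among the leucine zipper factors, and Il6 among the AP-1 targets. Tnf and Cd44 were on the lists of both AP-1 and EGR1 targets, and Nab1 and Nab2 were among the EGR1 targets too. Nos2 was 70.8 and 72.0 FPKM in the Ch25h_KO libraries, against 36.3 and 36.5 FPKM in the Ch25h_WT libraries (limma adjusted p = 0.0117), and Ccl5 and Chac1 rose by log2 changes of 1.27 and 0.64 (limma adjusted p = 0.0159 and 0.0434). The calls of Nos2 and Chac1 were lost with any library left out, and that of Ccl5 with any but Ch25h_WT replicate 2 left out. A replicate block ended all 3 calls (limma adjusted p = 0.0747 for Nos2, 0.0864 for Ccl5 and 0.142 for Chac1), and the call of Chac1 also ended with a pseudocount of 0.1 (0.0812) or 0.5 (0.0613) and with no filter on low values (0.0850). Atf3 itself stood at a log2 change of -0.082 beside them, and Atf4, the stress factor that induces Atf3, at 0.25 (SE 0.067, limma adjusted p = 0.153).

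Genes of the heat shock response and of other cells were read as signs of handling and cell make-up. In bulk RNA a change in the number of cells of a type and a change in RNA per cell cannot be told apart. At unadjusted p under 0.05 with limma, 9.38% of all tested loci were higher and 11.5% lower, the shares against which the counts below stand. Of 10 tested heat shock genes 0 passed with limma, 0 were higher and 4 lower at unadjusted p under 0.05, and the median log2 change was -0.12. The 4 were Hsp90aa1 at a log2 change of -0.41 (limma adjusted p = 0.078), Hsph1 at -0.27, Hspa8 at -0.18 and Hspd1 at -0.16. Hsp90aa1 passed among loci of at least 5 FPKM (limma adjusted p = 0.0357), and both it and Hsph1 passed with limma's trend and robust options. Hspa1a, the 1 gene of the 10 with a log2 change above 0, was at 2.63 and 2.45 FPKM in the Ch25h_KO libraries against 2.58 and 2.18 FPKM in the Ch25h_WT libraries. Fibroblast and mesothelial markers, 9 of 10 found, summed to 4.03 to 4.85 FPKM in Ch25h_KO against 1.39 to 1.55 FPKM in Ch25h_WT. The 1 tested, Dcn, was 2.47 and 1.53 FPKM in the Ch25h_KO libraries, against 0.712 and 0.452 FPKM in the Ch25h_WT libraries. Dcn was higher at unadjusted p under 0.05 and did not pass (limma adjusted p = 0.111). Below the filter, Col1a1, Col1a2 and Col3a1 also had higher means in Ch25h_KO (0.404, 0.705 and 0.826 FPKM against 0.0941, 0.208 and 0.280 FPKM). Krt19, Wt1 and Upk3b had higher means too, and Msln and Lum lower ones, with Lum at 0 in both Ch25h_KO libraries. Neutrophil markers, 9 of 10 found, summed to 165 FPKM in both Ch25h_KO libraries against 112 to 122 FPKM in Ch25h_WT, with Mpo and Elane at 0 in both Ch25h_KO libraries. S100a8 and Csf3r made up most of this sum. Among markers below the filter, Camp and Cxcr2 had lower means in Ch25h_KO (0.675 and 0.460 FPKM against 1.13 and 0.586 FPKM), and Retnlg and Ltf slightly higher ones. The 3 tested (S100a8, S100a9 and Csf3r) were all higher at unadjusted p under 0.05, and 0 passed with limma over all loci. Mast cell and basophil markers, 10 of 10 found, summed to 371 to 388 FPKM in Ch25h_KO against 383 to 395 FPKM in Ch25h_WT, with Mcpt8 at 0 in both Ch25h_KO libraries. Single genes of this list lay on both sides, and of 8 tested 1 was higher and 5 lower at unadjusted p under 0.05, with a median log2 change of -0.30, and 0 passed with limma over all loci. Hdc, the enzyme that makes histamine, was 213 and 227 FPKM in the Ch25h_KO libraries, against 158 and 164 FPKM in the Ch25h_WT libraries. The mast cell protease genes Cpa3, Tpsb2, Cma1 and Mcpt4 had log2 changes of -0.69, -0.67, -0.50 and -0.32, and the receptor Kit one of -0.28. B and T cell markers, 10 of 10 found, summed to 288 to 305 FPKM in Ch25h_KO against 321 to 324 FPKM in Ch25h_WT, and eosinophil markers, 6 of 6 found, to 2.42 to 2.56 FPKM in Ch25h_KO against 2.09 to 2.32 FPKM in Ch25h_WT, with Epx and Ear1 at 0 throughout and Prg2 at 0 in both Ch25h_KO libraries. The part of these cells in the values of Egr1, Fos and the other members was not tested.

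The loci nearest to 4 members in pattern were found by the Euclidean distance of log2(FPKM + 1), centred on each gene's mean, over the 4 libraries. Nearest to Egr1 were Zbp1, a nucleic acid sensor, at 0.0236, Rgs2, a brake on G protein signalling, at 0.0462 and F3 at 0.0503, and 5 loci lay within 0.1. Nearest to Fos were Gem at 0.00603, Saysd1 at 0.0117 and Siah2 at 0.0144, with 196 loci within 0.1. Nearest to Jun were Commd7, Cenpc1 and Leng8, with 962 loci within 0.1, and nearest to Atf3 were Mmd, Dnajb2 and Mta2, with 2028 within 0.1. With 4 libraries, many loci share a pattern by construction where the change is small.

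**Figure D4:**
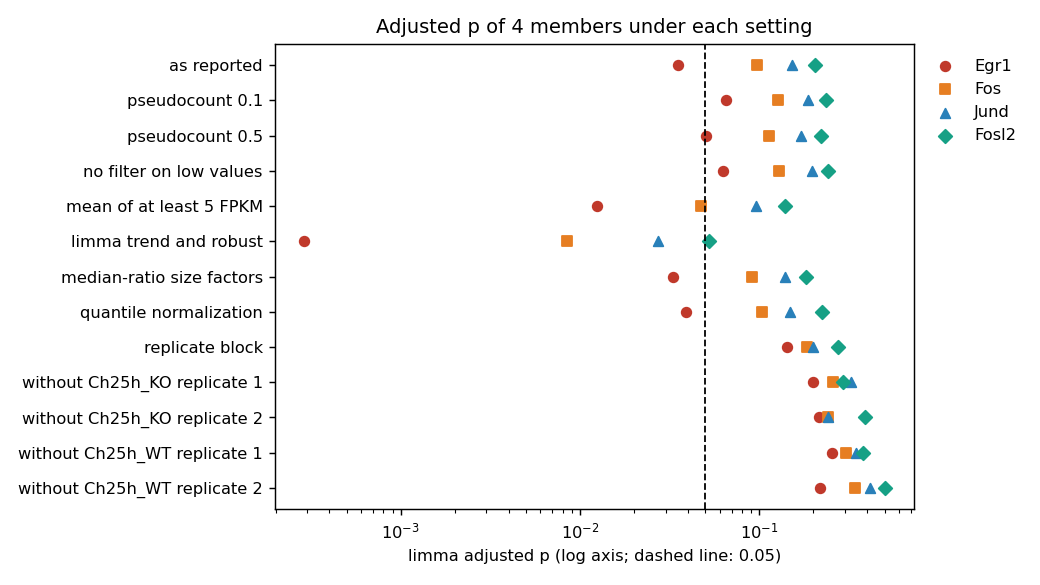
Limma adjusted p (log axis) of Egr1, Fos, Jund and Fosl2 as reported and under 12 alternative settings, with the threshold of 0.05 as a dashed line. Egr1 lies left of the line as reported and in 4 alternatives, Fos in 2, Jund in 1 and Fosl2 in 0, and with any library left out none of the 4 genes does.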

How the data were processed

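Cufflinks 2.2.1, TopHat2 2.0.14 and bcl2fastq were used on mm9, a mouse build, per the submitters' processing notes, without settings, annotation or strand in the sources used here. Deposited by the authors was 1 value per locus and library, taken as FPKM from its range and decimals, since the header names no unit. The 24192 lines were joined into 23735 loci, and 0 per-sample columns were left out. As FPKM are not counts, limma 3.58.1 (R 4.3.3) was fitted to log2(FPKM + 1) of 10074 loci averaging 1 FPKM or more, by genotype alone, and p-values were Benjamini-Hochberg adjusted over all of them with a threshold of 0.05. The pseudocount shrinks the change of low genes, and folds are ratios of mean FPKM.

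Relative depth came from the commonest ratio between libraries at low values, after which 93.1% of 1617 loci under 0.2 FPKM held whole fragments (tolerance 0.02, wider for larger counts). Fragments of members other than Fosb use GENCODE vM21 transcript lengths and are approximate. On simulated data with 10074 loci, 54.7% of 1.5-fold, 80.2% of 2-fold and 94.5% of 4-fold changes were recovered, with 3.69% false calls. The changed loci were drawn from the higher levels only, and spreads were shuffled across loci. These rates therefore do not cover genes as low as Egr3, nor any link between level and spread. Changes under 1.5-fold were not simulated, and among the tested members only Egr1, at 1.59-fold, exceeded that size. The rates thus say nothing of how often changes as small as those of the other members would be called.

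Members and lists were chosen with earlier results of these data known. The windows before the transcription start that were examined for elements included neither Egr1 nor Egr3, so the element counts say nothing of these genes. Named genes are the 10 members, Ch25h, and from each list those past the threshold and at most 2 higher and 2 lower with the smallest p. All regulators and zipper partners could be named, and 1 zipper factor that the counts include is not reported here by name. Apoe and further target or marker genes were named after their values were seen. Alternatives changed the pseudocount, filter, variance model, scaling, replicate block and library left out. Same-numbered libraries shared little deviation (correlation 0.0123 across loci), and the numbers were not taken to pair them.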

Additional observations from a re-analysis of the deposited data

How the results depend on the processing

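The number of loci past the threshold was 44 as reported. It was 29 with a pseudocount of 0.5, 18 with no filter on low values, 175 with a mean of at least 5 FPKM, 786 with limma's trend and robust options, 6 with the replicate block and 13 to 21 with each library left out, the remaining library of that group being assumed to vary like the other group. The number of members past the threshold was 1 as reported. It was 0 with a pseudocount of 0.1 or 0.5, with no filter and with the replicate block, 0 with each library left out, 2 (Egr1 and Fos) with a mean of at least 5 FPKM and 3 (Egr1, Fos and Jund) with trend and robust options. The same-numbered libraries share only a number, and the replicate block moved the count of loci to 6 and of members to 0, as given. Size factors and quantile normalization left 49 and 43 loci and 1 member.

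Of 41 genes followed singly, 4 turned direction in some setting and none of these had passed. With each library left out, the log2 change of Egr2 ranged from -0.11 to 0.030 (above 0 without Ch25h_KO replicate 2, at 0.0092, or Ch25h_WT replicate 1), that of Egr3 from -0.22 to 0.090, that of Nab1 from -0.063 to 0.022 (and 0.014 without Ch25h_KO replicate 2), and that of Hspa1a from -0.017 to 0.15. The cause was not tested. Depth limits Fosb, with 3 to 11 fragments a library, and to a lesser degree Egr3 and Egr2, with about 176 to 314.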
